A study of Homo sapiens with 14 samples.

Results

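The 18S nucleotides described here are nt 7 to 410 of human 18S rRNA, the start of the 5′ domain of the small ribosomal subunit with the expansion segment ES3S. They were chosen by position, as the rows in that range with a score for each of the 3 reagents NAIN3, AcIm and AcIN3. All 404 positions met this, of 1833 scored in 18S and 6867 scored in 18S and 28S together, and they make up 22.0% of scored 18S nucleotides. The other 1429 scored nucleotides, nt 411 to 1839, served as the comparison. RefSeq lists 5 copies of the 18S gene in GRCh38.p14, each 1869 nt long like the deposited profile. RNA18SN1, for example, is annotated on chromosome 21 from 8436876 to 8438744 as a structural rRNA gene without a coding region. The scores form a single 18S profile and do not tell the transcripts of different copies apart.

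The 5′ domain folds into the body of the small subunit, at the end far from the head, and is the first domain to be transcribed and bound by proteins during assembly. Expansion segments such as ES3S are insertions into the conserved rRNA core that lengthen in eukaryotes, and many lie at the solvent-exposed surface. The reagents acylate 2′-hydroxyls of the backbone where a nucleotide is flexible and within reach, and the adduct blocks reverse transcriptase. A nucleotide held in a helix or buried under protein usually reacts little.

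The cells were HEK293, a human embryonic kidney line that carries adenoviral DNA, and each treatment of the cells lasted 10 min. Ribosomal RNA was profiled after acetylimidazole (AcIm) at 100 mM, AcIN3 at 200 mM, NAIN3 (an azide-bearing nicotinic acid imidazolide) at 100 mM, and in a control with solvent, 10% DMSO. Each group had 2 biological replicates. The 18S and 28S RNA were purified on an agarose gel before library preparation. AcIN3 is known here by its code name alone. The values analysed were R-scores from 0 to 1, each the authors' mean over the replicates of 1 reagent. No value for DMSO or for single replicates was analysed here and the depth is unknown, so no difference below could be tested against the spread between replicates. AcIm and NAIN3 share dose and time, whereas AcIN3 values at a higher dose are given beside them. Cell identity cannot be checked from rRNA scores. Nucleotides of 1 molecule are not replicates, and the intervals given for shares (Clopper-Pearson, 95%) and medians (binomial, 95%) do not cover replicate error. They also treat nucleotides as independent, whereas neighbours resembled each other, most with NAIN3, so they are likely too narrow.

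NAIN3 left far more of the 5′ domain start without a score above 0 than it did elsewhere in 18S. NAIN3 was at exactly 0 on 86 of the 404 nucleotides (21.3%, 17.4 to 25.6%), against 73 of the 1429 others (5.11%, 4.03 to 6.38%), with 8.67% over all scored 18S. The start of the 5′ domain thus held 54.1% of all NAIN3 zeros in 18S (46.0 to 62.0%). AcIm was at 0 on 5 of its nucleotides (1.24%) and on 9 of the others (0.63%), with 0.764% overall. AcIN3 was at 0 on 20 (4.95%) and on 40 of the others (2.80%), with 3.27% overall. A score of 0 may mark an unreactive or an uncovered nucleotide, which was not tested. Of the NAIN3 zeros, 38 lay in 3 windows of 20 nt described below, and without these windows the share fell to 14.0%. The rest was not uniform. Its stretch with the highest share of NAIN3 zeros was the expansion segment ES6S, at 10.95% (7.07 to 15.98%) of 210 nucleotides.

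The typical score was lower there than in the rest of 18S for every reagent, by the median. For NAIN3 the median R-score was 0.0135 (0.009 to 0.0165) in the 5′ domain start and 0.0245 (0.0225 to 0.0265) in the rest. For AcIm the medians were 0.0673 (0.058 to 0.0795) and 0.0795 (0.074 to 0.0855), and for AcIN3 0.1003 (0.0885 to 0.1195) and 0.1215 (0.114 to 0.132). The intervals overlap for AcIm and AcIN3 and lie apart for NAIN3, but they treat neighbouring nucleotides as independent. By the mean the 5′ domain start lay closer to the rest, at 0.141 and 0.144 for AcIm and 0.174 and 0.184 for AcIN3. The NAIN3 mean ran the other way, at 0.0695 in the 5′ domain start and 0.0656 in the rest. Above 0.5 with NAIN3 were 18 of the 404 nucleotides, against 32 of the 1429 others. Among the 6 consecutive stretches of 18S, from the 5′ domain start to the decoding stretch, the 5′ domain start had the lowest median NAIN3 rank, 37.8, on a scale of percentile ranks within 18S from 0 to 100. The next lowest were ES6S with 43.8 and the head with 50.6. With AcIm and AcIN3 the decoding stretch was about as low as the 5′ domain start. Its median ranks were 45.9 and 43.8, beside 44.7 and 44.1 in the 5′ domain start. The first stretch of 28S, the core of domain I at nt 7 to 435, had NAIN3 at 0 on 5.13% of its 429 nucleotides, below the 10.2% of all scored 28S.

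**Figure D1:**
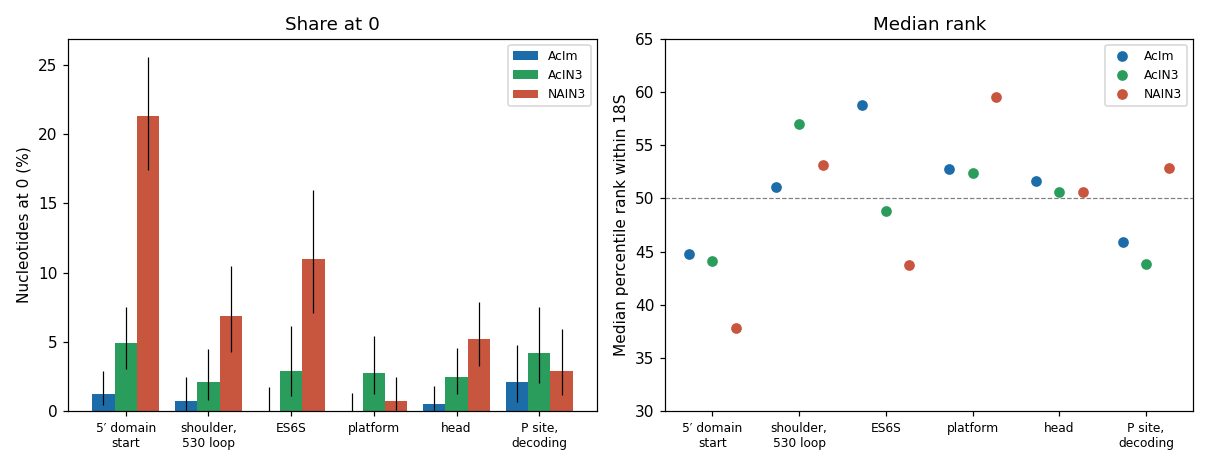
Share of nucleotides with a score of 0 (left, percent, with Clopper-Pearson 95% intervals) and median percentile rank within 18S (right) for 6 consecutive stretches of 18S rRNA, with AcIm in blue, AcIN3 in green and NAIN3 in red. The 5′ domain start stands at 21.3% zeros and a median rank of 37.8 for NAIN3, ES6S at 10.95% and 43.8, and the platform at 0.694% and 59.5.

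Highly reactive nucleotides were not scarce in the 5′ domain start. The 10% of 18S nucleotides with the highest scores of a reagent (183 nt, 9.98%) had AcIm scores from 0.3595 up, AcIN3 scores from 0.4395 up or NAIN3 scores from 0.1385 up. The 5′ domain start held 47 of AcIm's (25.7%, 19.5 to 32.6%), 41 of AcIN3's (22.4%, 16.6 to 29.1%) and 37 of NAIN3's (20.2%, 14.7 to 26.8%), and each interval includes its 22.0% share of the scored nucleotides. Its NAIN3 signal was concentrated on these few positions, since the 37 nucleotides carried 70.2% of the summed NAIN3 score, against 56.8% carried by the top nucleotides of the rest. For AcIm the top nucleotides carried 46.3% of the sum in the 5′ domain start and 37.9% in the rest. High NAIN3 scores also sat side by side more often than those of AcIm. Of the 37 top NAIN3 nucleotides 23 (62.2%, 44.8 to 77.5%) had a directly neighbouring top nucleotide, against 15 of 47 (31.9%, 19.1 to 47.1%) for AcIm and 13 of 41 (31.7%) for AcIN3. This was no feature of the 5′ domain start alone, because in the rest the shares were 52.1% for NAIN3, 26.5% for AcIm and 28.9% for AcIN3.

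**Figure D2:**
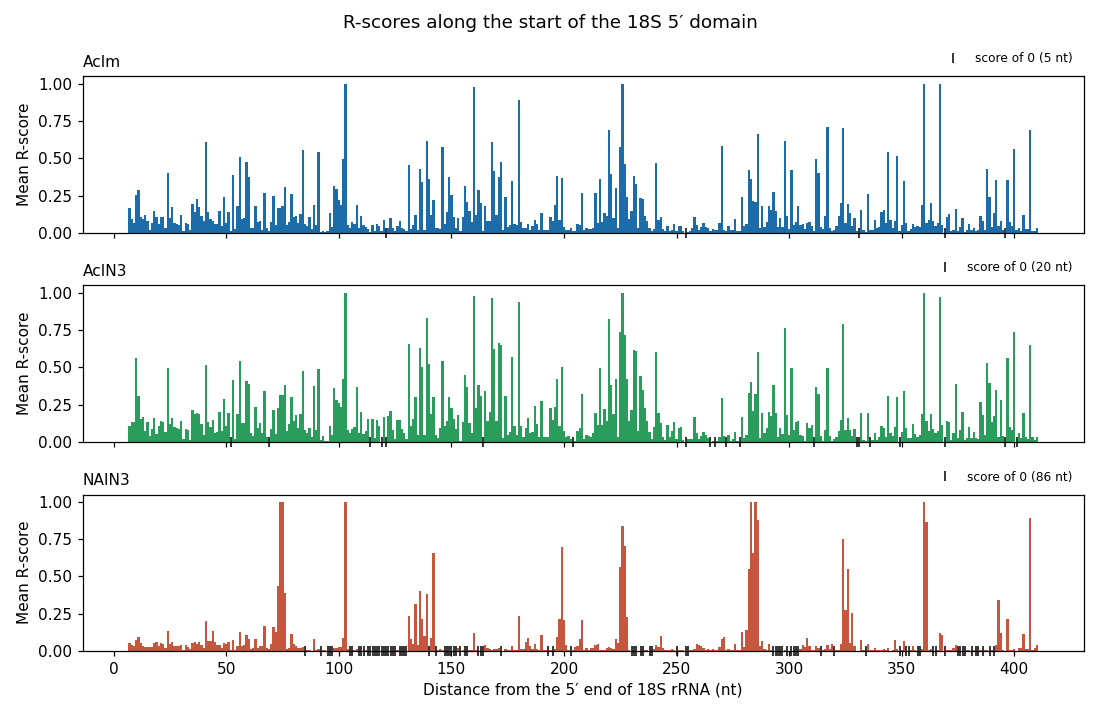
Mean R-score (0 to 1) of each nucleotide from nt 7 to 410, by distance from the 5′ end of 18S rRNA, in 1 panel per reagent, with black ticks at scores of 0. AcIm and AcIN3 rise mostly on the same nucleotides, though to unlike heights at some. NAIN3 shows narrow blocks, among them nt 282 to 286 with scores up to 1, and long floors, with 86 scores of 0 in all.

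The first NAIN3 score of 0 was at nt 85 and the last at nt 391. Nt 7 to 84, a range that ends before the first NAIN3 zero and was set after the values were seen, had a median NAIN3 rank of 67.0 and median ranks of 58.2 for AcIm and 53.8 for AcIN3. From nt 85 on, NAIN3 was at 0 on 26.4% of 326 nucleotides and its median rank was 24.4, beside 39.3 for AcIm and 41.8 for AcIN3. Across nucleotides, Spearman's rank correlation between AcIm and NAIN3 was 0.75 over the 78 nucleotides before nt 85 and 0.38 after it. Since the range was cut at the first NAIN3 zero, all NAIN3 zeros lie after it. The higher NAIN3 ranks before the cut and the share of zeros after it follow in part from the cut. The contrast in correlation may do so too.

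The longest floor of NAIN3 ran from nt 113 to 125, where 13 consecutive nucleotides scored 0. In the rest of 18S no run of NAIN3 zeros exceeded 6 nt. Over these 13 nucleotides AcIm ranged from 0 to 0.0975 with a median of 0.031, and AcIN3 from 0 to 0.209 with a median of 0.1085. AcIm was above its 18S median on 2 of the 13, and AcIN3 on 6 of them, with 3 others at 0. NAIN3 stayed below its 18S median for 27 nucleotides in a row, nt 104 to 130, against 16 at most in the rest. For AcIm the longest run below the median in the 5′ domain start was 14 nt (nt 244 to 257) and in the rest 17 nt.

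In windows of 20 nt counted from nt 7, the reagents parted most at nt 147 to 166. There the mean percentile rank was 61.6 for AcIm, the highest of its 20 windows, 60.8 for AcIN3 and 18.8 for NAIN3, with 12 NAIN3 zeros. AcIm was also ahead of NAIN3 at nt 287 to 306 (53.9 and 22.6, 10 NAIN3 zeros), nt 227 to 246 (54.1 and 30.7) and nt 107 to 126 (29.6 and 8.02, 16 NAIN3 zeros). NAIN3 was ahead at nt 267 to 286 (AcIm 44.5, NAIN3 59.3) and nt 27 to 46 (52.4 and 66.0). AcIm ranked higher than NAIN3 in 10 windows and lower in the other 10, and the differences ran from -14.8 to 42.8 rank points. The lowest NAIN3 window depends on where windows begin: its mean rank of 8.02 became 24.5 with windows moved by 10 nt and 20.1 with windows of 40 nt. The window at nt 247 to 266 was low for each reagent, with mean ranks of 20.5 for AcIm, 21.3 for AcIN3 and 27.7 for NAIN3. It held the longest floor that the reagents shared in the 5′ domain start, since nt 250 to 257 were below the median of each. The highest AcIm mean scores were 0.228 at nt 207 to 226 and 0.200 at nt 167 to 186.

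**Figure D3:**
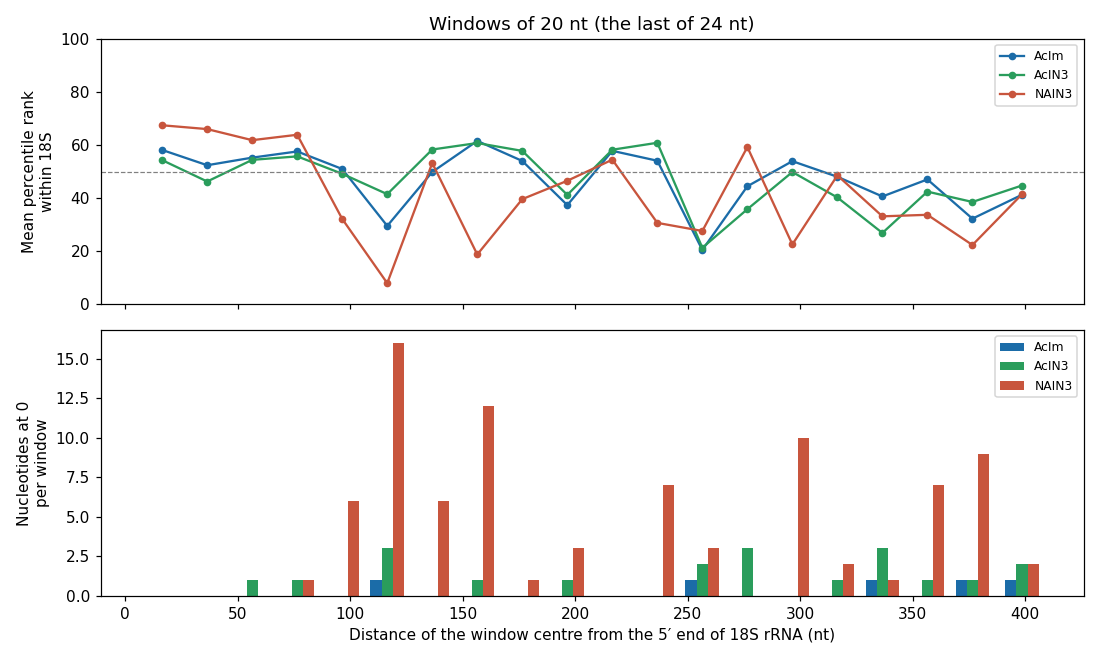
Mean percentile rank within 18S (top) and number of nucleotides at 0 (bottom) in 20 consecutive windows from nt 7 to 410, for AcIm (blue), AcIN3 (green) and NAIN3 (red), by distance of the window centre from the 5′ end. NAIN3 falls to 8.02 at nt 107 to 126 and 18.8 at nt 147 to 166, where 16 and 12 nucleotides are at 0.

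A small set of nucleotides was open to every reagent. In all, 14 were in the top 10% of AcIm, AcIN3 and NAIN3 (3.47% of the 5′ domain start, with 3.6% over all scored 18S and 52 in the rest). Nt 103 and nt 360 scored 1 with each reagent, the cap of the scale. Nt 226 scored 1 with AcIm, 1 with AcIN3 and 0.84 with NAIN3. Its neighbour nt 225 scored 0.577, 0.7375 and 0.5635. Nt 225 to 228 formed the longest stretch in the top 25% of all 3 reagents, against 6 nt in the rest. In the order AcIm, AcIN3, NAIN3, nt 324 (0.702, 0.792, 0.749), nt 407 (0.6875, 0.651, 0.8905), nt 286 (0.664, 0.605, 0.88) and nt 139 (0.616, 0.8315, 0.384) followed. A base modified in the cell can also stop reverse transcriptase without any reagent, and no DMSO profile was analysed here, so stops without reagent and acylation cannot be told apart at these nucleotides. At the other end nt 121, nt 254 and nt 369 were at 0 in all 3 reagents, 3 of the 5 such nucleotides in 18S (0.273%).

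AcIm and NAIN3 agreed less in the 5′ domain start than in most of 18S. At the same dose and time Spearman's rank correlation across nucleotides was 0.45 there (n = 404) and 0.62 in the rest (n = 1429), and among the 6 stretches only ES6S, at 0.45 with 210 nucleotides, was as low. Pearson's r was 0.47 in the 5′ domain start and 0.49 in the rest. AcIN3 and NAIN3, whose doses differ, had a rank correlation of 0.41 in the 5′ domain start and 0.63 in the rest. These correlations are between libraries of different reagents across the same nucleotides, and all reagents may share the DMSO background.

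NAIN3 was also lower among nucleotides of similar AcIm rank. In the 25% of 18S nucleotides with the highest AcIm rank, the median NAIN3 rank was 70.9 (55.9 to 81.9) for the 96 in the 5′ domain start and 80.8 (78.3 to 83.4) for the 363 others. In the next 25% below it was 55.5 and 61.4, then 30.5 and 45.8, and in the lowest 25% 17.0 and 24.4. The 5′ domain start was lower in each class, though the intervals overlapped or touched in each. NAIN3 zeros made up 15.6% of the highest class in the 5′ domain start and 2.75% in the rest. Of the 86 nucleotides with NAIN3 at 0, 30 (34.9%) had AcIm above its 18S median, and among the 73 NAIN3 zeros of the rest 29 (39.7%) did.

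Nucleotides in AcIm's top 10% and below NAIN3's 18S median (0.0225) were gathered in the 5′ domain start. Of its 47 top AcIm nucleotides 16 (34.0%, 20.9 to 49.3%) ranked below 50 with NAIN3, against 8 of 136 (5.88%, 2.57 to 11.3%) in the rest. The 5′ domain start held 16 of the 24 such nucleotides of 18S (66.7%), which are 1.31% of all scored. With AcIN3 in place of AcIm the counts were 14 of 41 (34.1%) and 10 of 142 (7.04%), again with 1.31% over 18S. Of the 34 nucleotides in the top 10% of both AcIm and AcIN3, 11 ranked below 50 with NAIN3, against 6 of 111 in the rest. Among all 404 nucleotides of the 5′ domain start, 243 ranked below 50 with NAIN3. With ranks taken within the 5′ domain start, or with rank 25 as the limit for low, the AcIm count was 8. No count for the rest is given at these limits.

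Nt 172 had the widest lead in rank, with 0.4765 for AcIm, 0.6505 for AcIN3 and 0 for NAIN3. Nt 301 (AcIm 0.423, AcIN3 0.4965), nt 231 (0.3795, 0.6175) and nt 149 (0.375, 0.298) were also at 0 with NAIN3. Nt 168 scored 0.6105 with AcIm and 0.9645 with AcIN3, but 0.003 with NAIN3. Nt 388 (0.4275, 0.5295, 0.003), nt 298 (0.617, 0.766, 0.0055) and nt 216 (0.3605, 0.493, 0.0055) complete the 8 of AcIm's top 10% with the largest rank difference. Nt 169, beside nt 168, was of the same kind (0.413, 0.6265 and 0.011). Nt 232, beside nt 231, was in the top 10% of AcIN3 but not of AcIm (0.324, 0.6085 and 0). Nt 140, in AcIN3's top 10% with 0.5255, stood at 0.359 with AcIm, just under that reagent's limit, and at 0 with NAIN3, directly after nt 139 with 0.384 for NAIN3. Open and silent nucleotides of NAIN3 thus lay next to each other there.

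**Figure D4:**
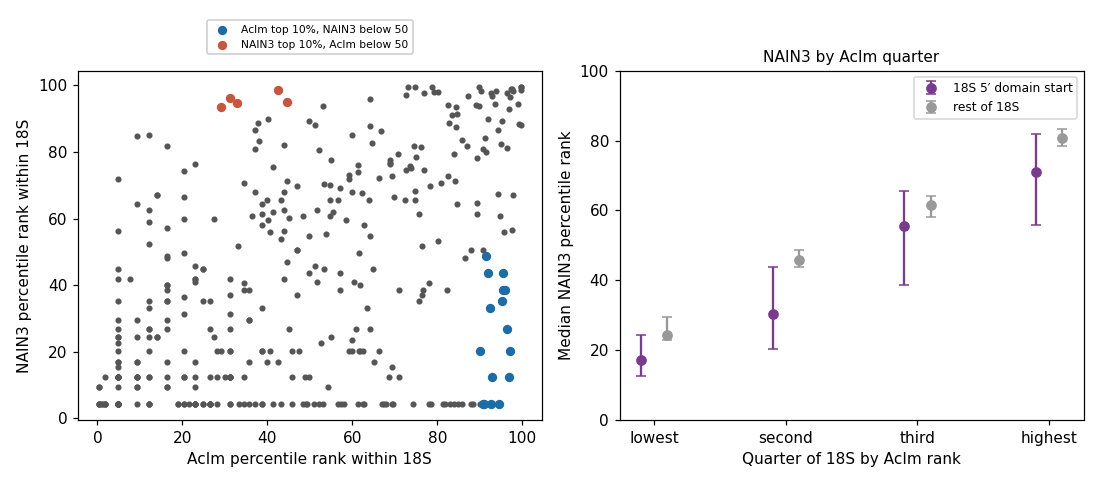
Left, percentile rank within 18S of NAIN3 against AcIm for the 404 nucleotides, with the 16 that were in AcIm's top 10% and below rank 50 with NAIN3 in blue and the 5 of the reverse kind in red. Right, median NAIN3 rank (with binomial 95% intervals) by class of AcIm rank, 25% of 18S each, for the 5′ domain start (purple) and the rest of 18S (grey), at 70.9 and 80.8 in the highest class.

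The reverse kind was no more frequent than elsewhere. Of 37 top NAIN3 nucleotides 5 (13.5%, 4.54 to 28.8%) ranked below 50 with AcIm, against 17 of 146 (11.6%, 6.93 to 18.0%) in the rest, and 22 nucleotides (1.2%) over 18S. Against AcIN3 the count was also 5, with 20 in the rest and 1.36% over 18S. Nt 393 (0.0445 with AcIm against 0.3405 with NAIN3), nt 200 (0.0415 against 0.209), nt 328 (0.046 against 0.2555), nt 361 (0.0635 against 0.867) and nt 325 (0.0665 against 0.273) made up the AcIm set. Nt 361, nt 325 and nt 200 directly follow nt 360, nt 324 and nt 199, which were in AcIm's top 10%. Thus 3 of the 5 lay 1 nt downstream of a nucleotide open to AcIm, as did 6 of the 17 in the rest, and 7 of the other 32 top NAIN3 nucleotides of the 5′ domain start. Moving the NAIN3 profile as a whole by 1 nt lowered the rank correlation with AcIm to 0.10 in one direction and 0.12 in the other.

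NAIN3's high scores lay in blocks that differed in their AcIm scores. When positions at most 2 apart were joined, its 37 top nucleotides fell into 17 groups, of which 7 had 2 or more members and together held 27. The block at nt 282 to 286 had AcIm scores from 0.2055 to 0.664 and NAIN3 scores of 0.55, 1, 0.6595, 1 and 0.88. In the block at nt 71 to 76, NAIN3 scored 1 at nt 74 and nt 75, where AcIm had 0.1675 and 0.1785 and AcIN3 had 0.3165 and 0.314, and no nucleotide of it was in AcIm's or AcIN3's top 10%. In the block at nt 225 to 228, by contrast, AcIm averaged 0.569 and NAIN3 0.584. Blocks at nt 134 to 139, nt 198 to 200, nt 324 to 328 and nt 360 to 361 reached 0.4015, 0.698, 0.749 and 1 with NAIN3.

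AcIm at 100 mM and AcIN3 at 200 mM ranked the nucleotides of the 5′ domain start nearly alike. Their rank correlation was 0.93 there and 0.95 in the rest. In the top 10% of both were 34 nucleotides of the 5′ domain start, of 47 for AcIm and 41 for AcIN3. In the rest there were 111, of 136 and 142. None of AcIm's 47 top nucleotides fell below rank 50 with AcIN3 (upper bound 7.55%) and none of AcIN3's 41 did so with AcIm (upper bound 8.60%), as in all of 18S (0%). Among AcIm's top 10%, the widest rank gaps over AcIN3 were at nt 270, with 0.5805 for AcIm and 0.294 for AcIN3, at nt 348, with 0.5145 and 0.3015, and at nt 344, with 0.541 and 0.309. Among AcIN3's top 10%, the widest gap over AcIm was at nt 10, with 0.2545 for AcIm and 0.566 for AcIN3. The largest window differences were 13.7 rank points in favour of AcIm at nt 327 to 346 and 12.0 in favour of AcIN3 at nt 107 to 126. The 2 windows with most NAIN3 zeros thus differed. At nt 107 to 126 AcIN3 had a mean rank of 41.5 beside 29.6 for AcIm. At nt 147 to 166 the mean ranks were 60.8 for AcIN3 and 61.6 for AcIm.

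Some means are far enough apart to order the replicates. With replicate scores confined to the scale from 0 to 1, a mean a over 2 replicates puts both at 2a − 1 or above, and a mean b puts both at 2b or below. AcIm was above NAIN3 in each replicate by this bound at 14 nucleotides of the 5′ domain start (3.47%, with 2.45% over 18S), of 24 with an AcIm mean high enough to meet it. They were nt 84, 91, 146, 160, 168, 180, 220, 270, 298, 317, 344, 348, 367 and 400, and 7 of them belong to the 16 that were high with AcIm and low with NAIN3. Nt 172, nt 231 and nt 301 did not meet it with AcIm. NAIN3 exceeded AcIm at nt 74, nt 75, nt 283, nt 285 and nt 361, 5 of 18 that could (1.24%, with 1.04% over 18S). AcIN3 exceeded NAIN3 at 17 nucleotides (3.44% over 18S) and NAIN3 exceeded AcIN3 at 5 (0.927% over 18S). Between AcIm and AcIN3 the bound was met at no nucleotide of the 5′ domain start, with 0% and 0.0546% over 18S for the AcIm and AcIN3 direction. These shares in the 5′ domain start were close to those of all 18S. For AcIm over NAIN3, the widest margin by scores was at nt 367, with 1 for AcIm, 0.973 for AcIN3 and 0.1175 for NAIN3. Nt 160 followed with 0.9765, 0.9765 and 0.1225.

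Ribose methylation replaces the 2′-hydroxyl that acylation needs, and pseudouridine is an isomer of uridine that leaves the ribose free. General knowledge places 9 ribose-methylated nucleotides and 9 pseudouridines of human 18S in nt 7 to 410. Their positions could not be checked against a sequence, since none of 18S was used here. The ribose-methylated sites had a median rank of 47.4 with AcIm, beside 51.3 for the 31 listed in the rest, and 43.8 beside 49.5 with AcIN3. With NAIN3 8 of the 9 were below rank 50, as were 15 of the 31 in the rest and 243 of all 404 nucleotides. Their median NAIN3 rank was 29.5, beside 50.6 in the rest and 37.8 for all 404 nucleotides. Um121 was at 0 with each reagent and Um116 scored 0.0125 with AcIm, 0.0235 with AcIN3 and 0 with NAIN3, both inside the floor at nt 113 to 125. Um172 and Cm174 were high with AcIm (0.4765 and 0.238) and with AcIN3 (0.6505 and 0.311), and low with NAIN3 (0 and 0.014). Am99 (0.2965 with AcIm, 0.2795 with AcIN3 and 0.0205 with NAIN3), Am27 (0.066, 0.0995 and 0.035), Am159 (0.071, 0.0565 and 0.0055), Am166 (0.077, 0.1365 and 0.0175) and Um354 (0.0245, 0.0235 and 0.009) were the others. Am159 directly precedes nt 160, which scored 0.9765 with both AcIm and AcIN3.

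The listed pseudouridines of the 5′ domain start had median ranks of 22.9 for AcIm, 23.5 for AcIN3 and 20.3 for NAIN3, beside 54.0, 58.8 and 33.0 for the 29 listed in the rest, and 7, 7 and 8 of the 9 were below rank 50. Psi34, Psi93, Psi105, Psi109, Psi119, Psi210 and Psi406 scored at most 0.0325 with AcIm. In the order AcIm, AcIN3, NAIN3, Psi36 (0.1415, 0.186, 0.061) and Psi218 (0.1305, 0.2205, 0.0055) were above the median with AcIm and AcIN3. Psi406 scored 0.0245, 0.022 and 0.014 in the same order. The next nucleotide, nt 407, was among the most reactive. With the numbering moved by 1 nt the levels changed. At the nucleotide after the listed pseudouridines the median ranks were 61.6, 62.2 and 17.0 in the order AcIm, AcIN3, NAIN3, and at the nucleotide before them 34.4, 36.6 and 37.0. For the ribose-methylated sites they were 38.8, 58.8 and 40.9 at the nucleotide after and 69.2, 61.3 and 15.3 at the nucleotide before. The lists are small and were not drawn at random, and whether their bases alone set these levels was not tested.

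The low scores have a coarse grain that limits their order. The 404 nucleotides took 186 distinct AcIm values, 207 AcIN3 values and 146 NAIN3 values. For AcIm 34 nucleotides shared the value 0.0125 and for NAIN3 31 shared 0.003, and the same values recurred on 68 and 66 nucleotides of the rest. The lowest score above 0 was 0.0045 for AcIm, 0.0075 for AcIN3 and 0.002 for NAIN3. Ranks in the lower part of a profile therefore rest on few steps. Neighbouring nucleotides resembled each other more with NAIN3, whose rank correlation between a nucleotide and the next was 0.58, than with AcIm (0.19) or AcIN3 (0.17). For AcIm and AcIN3 the value at 3 nt was higher, at 0.29 and 0.28.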

How the data were processed

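The deposited tables hold 1 R-score per nucleotide and reagent for 18S and 28S rRNA, a score from 0 to 1 that the authors averaged over replicates, per the file headers and the series design. The submitters' processing notes name Bowtie2 and GRCh38 without a version. For the formula of the score, its use of the DMSO libraries and any depth filter, nothing is given in the sources used here. Averaging hides the spread between replicates, and a floor at 0 and a cap at 1 remove order at the ends. The labels list 14 samples in 7 groups of 2, of which the 3 reagent groups of rRNA were analysed here.

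Percentile ranks (ties averaged) were taken within 18S. Top nucleotides were the highest 10%, with ties ordered by position. Opposed nucleotides were top in 1 reagent and below rank 50 in the other. Windows were 20 nt long, with 4 remaining nucleotides joined to the last. No test across replicates was possible. Named nucleotides were the 8 highest of each reagent, the 8 (AcIm and NAIN3) or 5 (other pairs) that led by most ranks, each way, of those in the higher reagent's top 10%, the shared top and shared zero nucleotides, the listed modified sites, and the leading windows and runs. Other nucleotides, the blocks of NAIN3 and the boundary at nt 85 were chosen after their values were seen. Members and lists were chosen with earlier results of these data known. The code was tested on simulated data. The software was pandas 2.3.3 and numpy 2.4.6 on Python 3.11.15, with scipy 1.17.1 for intervals and correlations and matplotlib 3.10.9 for figures. Base composition and pairing were not analysed here.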

Additional observations from a re-analysis of the deposited data

How the results depend on the processing

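No paired analysis was possible because only means over replicates were analysed, and for the same reason no replicate could be left out. Over 116 alternative values of 26 results, 80 stayed within their interval (levels, shares, correlations, modified sites) or within 1.5 times the main value (counts, windows). The 80 include large moves, such as the pseudouridines' median AcIm rank, 22.9 as listed and 61.6 at the nucleotide after. They include the AcIm difference in level, -0.01225 by medians and -0.00258 by means. Opposed counts of 0 between AcIm and AcIN3 that stayed at 0 are also among them. The lower median of the 5′ domain start depended on the reference and the summary. Against all scored 28S nucleotides the difference in median R-score was 0.00175 for AcIm (reversed), -0.00025 for AcIN3 and -0.0195 for NAIN3. By means the NAIN3 difference was 0.00393 (reversed), and without scores of 0 it was -0.004. The 5′ domain start held 27.5% of NAIN3's top 5%. Without the 3 windows with most NAIN3 zeros (chosen after seeing the data) 14.0% of nucleotides were at 0, and the rank correlation with NAIN3 was 0.53 for AcIm and 0.51 for AcIN3. Without members at 0 these were 0.54 and 0.51. With 5-nt running means the rank correlation of AcIm and AcIN3 was 0.90.

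Counts of opposed nucleotides followed the limits. In the order AcIm over NAIN3, NAIN3 over AcIm, AcIN3 over NAIN3 and NAIN3 over AcIN3 they were 7, 3, 7 and 2 with the top 5%, and 27, 15, 28 and 13 with the top 20%. With rank 25 as the low limit they were 8 for AcIm over NAIN3, 0 for NAIN3 over AcIm and 2 for NAIN3 over AcIN3. Ranks within the 5′ domain start gave 8 for AcIm over NAIN3. With NAIN3 moved by 1 nt the counts were 28, 14, 24 and 16 in one direction and 27, 17, 26 and 19 in the other. All these counts are for the 5′ domain start. No count for the rest is given at these settings, so whether an excess over the rest holds at them was not tested. With windows of 40 nt the widest lead of AcIm over NAIN3 was 20.2 rank points, and the lowest NAIN3 window had a mean rank of 20.1, against 5.16 with 10 nt and 24.5 with windows moved by 10 nt. The depth is unknown, so what it limits cannot be stated.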
